A study of Mus musculus with 28 samples.

Results

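Genes of DNA replication and of nucleotide synthesis were described in medulloblastoma, glioma and normal brain of mice. They are 35 genes of 18193 that had a probe set annotated to exactly 1 symbol. They were chosen by name for their role, with earlier results of these data known, and each is represented by its brightest such probe set. The roles are the MCM helicase (6 genes), origin licensing (5), origin firing (6), DNA polymerases (6), sliding clamp, single-strand binding and strand joining (7) and deoxynucleotide supply (5). All 35 passed the filter on dim genes, which left 13931 genes tested.

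Expression was measured on 28 arrays (Affymetrix, with short oligonucleotide probes combined into probe sets): 10 medulloblastomas, 6 gliomas and 12 normal brains. The medulloblastomas were 3 tumours of genotype hGFAP-Cre::p53-/- with Rictor not targeted (A3, A5 and A6), 2 that were also heterozygous for Rictor (B4 and B6) and 5 that were also Rictor-/- (C1, C2, C4, C5 and C6). The gliomas were 1 p53-null-only (A4), 4 Rictor-heterozygous (B1, B2, B3 and B7) and 1 Rictor-null tumour (C3), and the normal brains were 1 p53-null-only (A6), 5 Rictor-heterozygous, 5 Rictor-null and 1 wild-type sample (Z2). All mice but the wild type thus carried hGFAP-Cre, a recombinase driven by the human GFAP promoter in neural progenitors and glia, and were labelled p53-/-. Rictor is a subunit that mTORC2, a growth-signalling kinase complex, cannot work without. The labels give no ages. Nor do they state whether arrays of one group come from different mice, so a p-value here measures only how far these samples spread, and that spread may be technical. Tumour pieces held at least 70% tumour cells per the labels. In such bulk samples, fewer cells of a type and less RNA per cell cannot be told apart.

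Before a cell divides, a pair of MCM helicase rings is loaded on each replication origin by the origin recognition complex with Cdc6 and Cdt1, a step called licensing that geminin blocks once S phase has begun. The kinases CDK and Cdc7-Dbf4 then fire the origin by joining Cdc45 and GINS to the helicase, after which primase and the replicative polymerases copy both strands on the sliding clamp PCNA. Ribonucleotide reductase, thymidylate synthase, thymidine kinase and dUTPase supply the deoxynucleotides. Transcription of many of these genes is known to be driven by E2F factors at the entry to S phase, and quiescent cells such as adult neurons keep most of them low.

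Promoter sequences are shown for 5 genes, since E2F sites are a known feature of replication genes. The examples span the highest helicase and nucleotide differences described below as well as a promoter with no E2F match, and Pola1 is a further example. These windows hold E2F matches more often than the promoters of the set as a whole, and none without any marked match is shown. RefSeq (build GRCm38.p6) held promoters for 30 of the 35 genes; Gins1, Gins2, Gmnn, Mcm4 and Pole had no entry in the table used. The windows are the 250 bases before the annotated start, written 5′ to 3′ on the gene's strand, and capitals mark matches on either strand to an E2F-type motif or to a CCAAT box. The E2F-type motif was searched in the spelling TTCCCGC, as well as in the variant spelling TTGGCGC, in a variant with another inner part, TTCGCGC, and in the remaining variant spelling, which was TTGCCGC. Adjoining capitals can be overlapping matches. Mcm6 lies on the minus strand at chr1:128359706-128359955 and Mcm3 on the minus strand at chr1:20820313-20820562. Mcm5 lies on the plus strand at chr8:75109259-75109508, Rrm2 on the plus strand at chr12:24708004-24708253 and Pola1 on the minus strand at chrX:93632156-93632405.
Mcm6: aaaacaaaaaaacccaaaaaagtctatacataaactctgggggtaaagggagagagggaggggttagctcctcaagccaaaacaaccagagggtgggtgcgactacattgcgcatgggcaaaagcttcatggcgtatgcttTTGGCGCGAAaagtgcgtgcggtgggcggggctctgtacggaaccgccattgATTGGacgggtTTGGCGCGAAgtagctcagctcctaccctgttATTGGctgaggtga
Mcm5: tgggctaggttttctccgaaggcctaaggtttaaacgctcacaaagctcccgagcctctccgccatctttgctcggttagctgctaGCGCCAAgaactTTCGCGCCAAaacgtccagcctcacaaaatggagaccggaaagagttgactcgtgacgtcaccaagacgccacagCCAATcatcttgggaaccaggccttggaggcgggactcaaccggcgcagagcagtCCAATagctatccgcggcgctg
Pola1: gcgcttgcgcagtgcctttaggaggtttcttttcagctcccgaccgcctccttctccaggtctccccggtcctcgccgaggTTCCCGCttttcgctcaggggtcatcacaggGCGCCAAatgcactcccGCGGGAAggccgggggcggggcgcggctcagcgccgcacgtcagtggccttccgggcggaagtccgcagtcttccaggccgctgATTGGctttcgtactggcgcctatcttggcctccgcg
Rrm2: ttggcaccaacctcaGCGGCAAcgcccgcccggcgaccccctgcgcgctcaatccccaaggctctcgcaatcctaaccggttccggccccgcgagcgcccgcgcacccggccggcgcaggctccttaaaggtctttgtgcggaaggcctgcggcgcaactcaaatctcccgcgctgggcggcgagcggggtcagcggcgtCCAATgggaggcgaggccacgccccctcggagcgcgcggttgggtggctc
Mcm3: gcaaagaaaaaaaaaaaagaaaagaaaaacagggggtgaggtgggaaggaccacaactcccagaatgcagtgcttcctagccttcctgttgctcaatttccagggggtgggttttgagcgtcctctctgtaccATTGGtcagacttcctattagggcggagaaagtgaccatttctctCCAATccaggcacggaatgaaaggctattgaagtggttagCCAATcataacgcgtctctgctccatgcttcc

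The Mcm6 window held 4 E2F-type matches in 2 overlapping pairs, the nearest starting 43 bases before the start, and 2 CCAAT boxes. Mcm5 and Pola1 held 3 E2F-type matches each. In Rrm2 the single E2F-type match began 235 bases before the start and the CCAAT box 50 bases before it. Mcm3 held 3 CCAAT boxes and no E2F-type match. Over all 35 promoters of the 30 genes, 14 (40%) held an E2F-type match, against 7.89% of 32851 mouse promoters of the same length. A CCAAT box was in 48.6% against 33.8%, and the cell cycle element TTTGAA, searched on both strands, in 11.4% against 16%. In 10 genes 1 promoter held both an E2F-type match and a CCAAT box, in 11 no promoter held either, and matches of the 2 kinds overlapped at 1 place. These matches describe letters in the windows and are no evidence of binding.

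The labels fitted the markers of their tissues. The summed intensity of 7 granule neuron precursor genes was 9704 to 13508 in medulloblastoma, 636 to 2795 in glioma and 800 to 8887 in normal brain. The normal brain median of this sum was 1163, and normal brains Z2 (8887) and C5 (8353) came near the lowest medulloblastoma. For 5 oligodendrocyte precursor genes the sum was 8626 to 13419 in glioma, 786 to 4118 in medulloblastoma and 514 to 2452 in normal brain. Normal brain was the richest in 5 mature neuron genes (11273 to 16379, against 1471 to 9412 in medulloblastoma and 209 to 3406 in glioma). The sum of 4 measured myelin genes was 4552 to 14680 in normal brain, 181 to 3359 in medulloblastoma and 823 to 12132 in glioma, and no marker was at 0 on any array. These marker sums move with the tissue differences below, and their part in them was not tested. Actin signal at the 3' end over that at the 5' end, a ratio raised by RNA degradation, was 2.55 ± 0.829 (SD, n = 10) in medulloblastoma, 2.23 ± 0.461 (SD, n = 6) in glioma and 3.74 ± 1.42 (SD, n = 12) in normal brain, and the same ratio for Gapdh was 1.26 ± 0.262, 1.39 ± 0.27 and 1.32 ± 0.476. The part of these ratios was likewise not tested. Rictor itself was 68.8 to 236 in the Rictor-null medulloblastomas and 223 to 277 in the other 5, while the Rictor-null normal brains spanned 213 to 444; no source used here says whether its probes lie in the deleted part.

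3 arrays were the lowest or highest of their tissue for most of the replication genes. Glioma A4 was the lowest glioma for 33 of the 35 genes. Its median over them was 6.95 (log2 of intensity plus 6.3), against 7.39 in the next lowest glioma, B2, and a top value of 8.07 in C3. Normal brain C2 was the highest normal brain for 24 genes, with a median of 6.71 against at most 6.13 in the other 11. Medulloblastoma A3 was the lowest medulloblastoma for 22 genes. Its median of 7.69 lay close to the 7.85 of C6 and the 7.94 of A6, and the highest value was 8.76 in A5. The proliferation marker Mki67 ordered these arrays likewise: it was 275 in normal brain C2, where the normal brain median was 13.3, 168 in glioma A4 and 479 in medulloblastoma A3, each the lowest of its tumour kind.

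**Figure D1:**
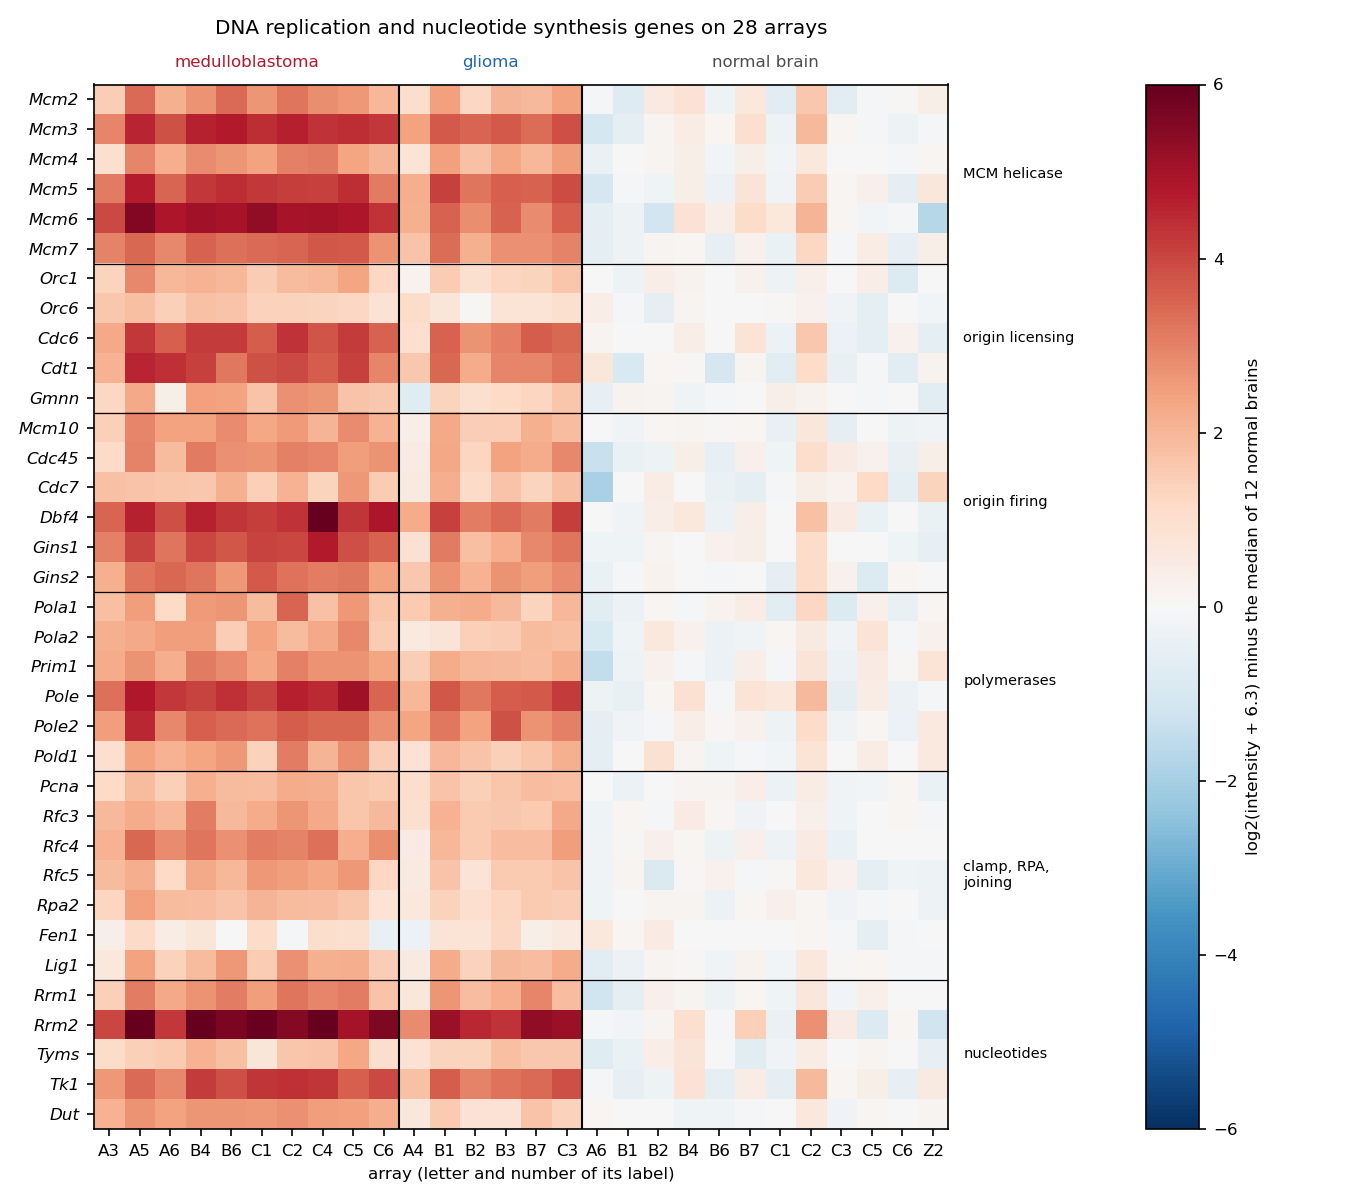
Heat map of the 35 genes (rows, grouped by role) on 28 arrays (columns, by tissue), coloured by log2(intensity + 6.3) minus the gene's median over the 12 normal brains. The medulloblastoma columns are the reddest, glioma A4 is the palest glioma column, and normal brain C2 is the reddest normal brain column.

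All 35 genes were higher in medulloblastoma than in normal brain at a Benjamini-Hochberg adjusted p under 0.05 by limma, where 32.2% of all tested genes were higher. The median log2 difference was 2.65, with a range of 0.50 to 5.28, against 0.01 over all genes (a log2 difference of 1 is a doubling). 34 of the 35 were more than 2-fold higher, a size that 13.8% of all genes reached. In 31 genes every medulloblastoma exceeded every normal brain, which held for 8.76% of all genes. The exceptions were Mcm2, Pola1, Tyms and Fen1, and without normal brain C2 the groups of 33 genes did not overlap (9.35% of all genes). In glioma 34 of the 35 were higher than in normal brain (28.4% of all genes), with a median of 1.94 against 0.05 over all genes, and 33 were more than 2-fold higher (11.5%). The glioma and normal brain arrays of 20 genes did not overlap (9.45%); without glioma A4 it was 30 genes (11%), and without normal brain C2 it was 28 (10.4%). Both comparisons share the 12 normal brains, so their values stand side by side and are not independent of each other. The 35 genes were picked with earlier results of these data known, so the counts are not those of an unselected set.

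**Figure D2:**
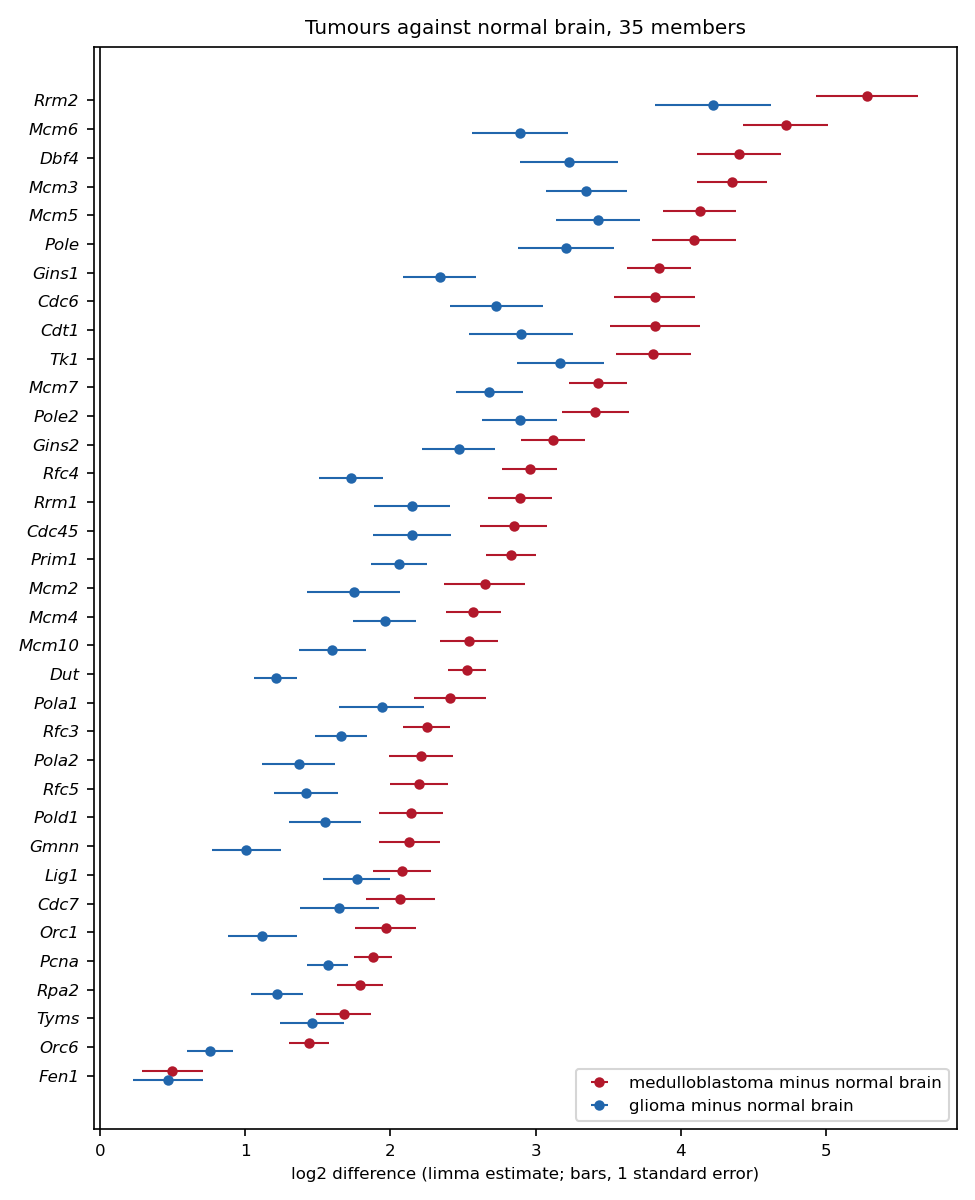
Log2 difference from normal brain of the 35 genes (rows, ordered by the medulloblastoma difference) for medulloblastoma (red) and glioma (blue), with bars of 1 standard error of the limma estimate. Rrm2 and Mcm6 lie farthest right for medulloblastoma, at 5.28 and 4.72, and Fen1 is the lowest for both tumours, at 0.50 and 0.47.

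The 6 helicase genes encode the subunits of the ring that unwinds the DNA. Their median log2 difference from normal brain was 3.78 in medulloblastoma and 2.79 in glioma, the highest of the 6 roles in both. Mcm6 differed most in medulloblastoma: its intensity was 635, 1236 and 1911 (lowest, median and highest) in medulloblastoma, 170, 377 and 476 in glioma and 6.1, 34.5 and 161 in normal brain. The 3 tissues did not overlap, A3 and A4 were the lowest tumours and C2 was the highest normal brain. The log2 difference from normal brain was 4.72 (SE 0.29, limma adjusted p = 1.11e-12) in medulloblastoma and 2.89 (SE 0.33, limma adjusted p = 8.18e-08) in glioma. Mcm4 had the smallest medulloblastoma difference of the ring, 2.57 (SE 0.19, limma adjusted p = 2.62e-11), from 247, 749 and 1116 in medulloblastoma against 92, 124 and 199 in normal brain. Its gliomas reached 226, 579 and 730, so that all its tumours lay above the normal brains. Mcm3 stood at 235, 690 and 847 in medulloblastoma and 9.3, 25.9 and 117 in normal brain, with a lowest glioma of 166 and a glioma median of 375, again without overlap between tumours and normal brain. Mcm2, Mcm5 and Mcm7 differed from normal brain by 2.65, 4.13 and 3.43 in medulloblastoma and by 1.75, 3.43 and 2.68 in glioma. A second probe set of Mcm2 gave 4.10 in medulloblastoma, so the size for Mcm2 depended on the probe set read.

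Licensing genes split into a pair with large and a trio with smaller differences. Cdc6, which loads the helicase with the origin recognition complex, had intensities of 45.9, 167 and 214 in medulloblastoma, 15.4, 99 and 128 in glioma and 0.9, 4.65 and 27.8 in normal brain. The medulloblastomas lay above all normal brains, while glioma A4 fell below normal brain C2. Cdt1, its partner in loading, had 371, 1306 and 2090 in medulloblastoma, 262, 677 and 969 in glioma and 38.1, 82.3 and 186 in normal brain, without overlap between tumours and normal brain. Cdc6 and Cdt1 both differed from normal brain by 3.82 in medulloblastoma (SE 0.28 and 0.31) and by 2.73 and 2.90 in glioma, with limma adjusted p of at most 2.34e-07. Orc6, the smallest subunit of the recognition complex, had the smallest licensing difference, with 225, 332 and 432 in medulloblastoma, 125, 218 and 270 in glioma and 77.3, 120 and 160 in normal brain. Here 1 glioma, B2, fell among the normal brains, and A4 was the highest glioma, the opposite of its rank for most genes. The Orc6 difference was 1.44 (SE 0.14, limma adjusted p = 1.87e-09) in medulloblastoma and 0.76 (SE 0.16, limma adjusted p = 2.44e-04) in glioma. Orc1, the subunit that leaves the complex after S phase begins, differed by 1.97 and 1.12. Gmnn encodes geminin, the inhibitor of Cdt1, and differed by 2.13 and 1.01; its values were 109, 360 and 586 in medulloblastoma, 47.7, 205 and 274 in glioma and 49.2, 83.4 and 109 in normal brain. Glioma A4 was below all 12 normal brains for Gmnn while the other gliomas were above them, and the lowest medulloblastoma, A6, barely exceeded the highest normal brain.

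Among the firing genes the regulatory and the catalytic subunit of one kinase had the largest and the smallest difference in medulloblastoma. Dbf4, the activating subunit, was 312, 551 and 3084 in medulloblastoma, 126, 263 and 490 in glioma and 15, 22 and 88.6 in normal brain. Tumours and normal brains did not overlap, and medulloblastoma C4 stood far above the other 9, which reached 820. The Dbf4 difference from normal brain was 4.40 (SE 0.29, limma adjusted p = 3.79e-12) in medulloblastoma and 3.23 (SE 0.34, limma adjusted p = 1.94e-08) in glioma. Cdc7, the catalytic subunit, had the smallest firing difference in medulloblastoma, 2.07 (SE 0.24, limma adjusted p = 3.78e-08), with 1.65 (SE 0.27, limma adjusted p = 1.63e-05) in glioma. Its values were 239, 306 and 588 in medulloblastoma, 133, 274 and 429 in glioma and 18.8, 90.5 and 239 in normal brain. Unlike for most genes, the highest normal brain was the wild-type array Z2, followed by C5 at 214, and gliomas A4 and B2 fell below Z2. Z2 also had the highest sum of mature granule neuron markers (11479, normal brain median 406) and of granule precursor markers (8887), whose part in the value was not tested. Gins1, a subunit of the GINS ring that joins the helicase, was 182, 342 and 610 in medulloblastoma, 37.2, 131 and 207 in glioma and 10.3, 16.8 and 43.9 in normal brain. Only glioma A4 fell below the highest normal brain, C2. Gins1, Gins2, Cdc45 and Mcm10, all needed for helicase activation, differed by 3.85, 3.12, 2.85 and 2.54 in medulloblastoma and by 2.34, 2.47, 2.15 and 1.60 in glioma.

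Of the polymerase genes, Pole, the catalytic subunit of the leading-strand polymerase epsilon, differed most. It was 95.6, 204 and 351 in medulloblastoma, 35.7, 127 and 188 in glioma and 1, 4.2 and 33.4 in normal brain, and no tumour overlapped a normal brain. The differences were 4.09 (SE 0.29, limma adjusted p = 8.37e-12) and 3.21 (SE 0.33, limma adjusted p = 1.54e-08). Pold1, the catalytic subunit of the lagging-strand polymerase delta, differed least in medulloblastoma, by 2.14 (SE 0.22), with 1.55 (SE 0.25) in glioma. Its values were 73.4, 178 and 322 in medulloblastoma, 65, 120 and 165 in glioma and 20.3, 33 and 68.5 in normal brain, where A4 alone among the gliomas lay within the normal range. Pola1, Pola2 and Prim1, of the primase complex that starts each strand, differed by 2.41, 2.21 and 2.83 in medulloblastoma and by 1.94, 1.37 and 2.06 in glioma. Pole2, the second subunit of epsilon, differed by 3.41 and 2.89.

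Genes of the clamp, of single-strand binding and of strand joining had the smallest median of the roles in medulloblastoma, 2.08, with 1.57 in glioma. Rfc4, a subunit of the clamp loader, differed most of these in medulloblastoma, with 200, 353 and 516 in medulloblastoma, 61.9, 170 and 266 in glioma and 30.8, 41.9 and 60.8 in normal brain. No tumour overlapped a normal brain, although glioma A4 came within a small margin. The Rfc4 differences were 2.96 (SE 0.19, limma adjusted p = 2.52e-12) and 1.73 (SE 0.22, limma adjusted p = 4.00e-07). Pcna, the clamp, was 1572, 2520 and 3216 in medulloblastoma, 1400, 2225 and 2486 in glioma and 519, 681 and 934 in normal brain. The tumours lay apart from the normal brains, and the differences of 1.88 and 1.57 had the small standard errors of 0.13 and 0.14. The loader subunits Rfc3 and Rfc5 differed by 2.25 and 2.20 in medulloblastoma, Rpa2, of the single-strand binding complex, by 1.79, and the ligase Lig1 by 2.08; in glioma these were 1.66, 1.42, 1.22 and 1.77.

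Read from its brightest probe set, Fen1, the nuclease that trims Okazaki fragments, was the exception of the set. It was 129, 267 and 398 in medulloblastoma, 137, 287 and 426 in glioma and 120, 176 and 277 in normal brain, and all 3 ranges overlapped. The difference was 0.50 (SE 0.21, limma adjusted p = 0.0395) in medulloblastoma and 0.47 (SE 0.24, limma adjusted p = 0.0967) in glioma, so that the call held in medulloblastoma alone; a test between the tumours gave 0.02 (SE 0.25, limma adjusted p = 0.959). The medulloblastoma call was lost when any of 12 of the 28 arrays was left out (0.42 to 0.62 over all 28). The glioma difference was 0.70 without glioma A4 and then passed. A second probe set of Fen1 differed by 0.95 (SE 0.18, limma adjusted p = 3.88e-05) in medulloblastoma and by 0.60 (SE 0.20, limma adjusted p = 0.0144) in glioma, in the fit of each probe set on its own. The sizes and the glioma call for Fen1 thus depended on the probe set read.

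Rrm2, the S-phase subunit of ribonucleotide reductase, had the largest difference of all 35 genes in both tumours. It was 667, 2077 and 3209 in medulloblastoma, 300, 1239 and 1669 in glioma and 12.5, 36.2 and 273 in normal brain. The tumours did not overlap the normal brains, but normal brain C2 came close to glioma A4. The differences were 5.28 (SE 0.35, limma adjusted p = 3.76e-12) and 4.22 (SE 0.40, limma adjusted p = 5.44e-09). Rrm1, the catalytic subunit of the same enzyme, differed by 2.89 and 2.15, and Tk1, the thymidine kinase of dividing cells, by 3.81 and 3.17. Dut encodes dUTPase, which keeps uracil out of DNA, and was 681, 936 and 1076 in medulloblastoma, 250, 345 and 516 in glioma and 127, 153 and 242 in normal brain, without overlap between any of the tissues. Its differences from normal brain were 2.53 (SE 0.13, limma adjusted p = 2.60e-13) and 1.21 (SE 0.15, limma adjusted p = 3.43e-07). Another, dimmer Dut probe set differed by 0.01 (SE 0.12, limma adjusted p = 0.945) in medulloblastoma. Tyms, thymidylate synthase, had the smallest nucleotide difference in medulloblastoma, 1.68 (SE 0.19), with 1.46 (SE 0.22) in glioma. It was dim throughout, with 12.6, 28.8 and 50.1 in medulloblastoma, 14.6, 25.5 and 33.5 in glioma and 0.5, 5.05 and 12.9 in normal brain, and only the lowest medulloblastoma, C1, fell within the normal range. At such levels the pseudocount of 6.3 lowers the log2 difference.

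Other probe sets of the same genes were read where the array had them. 27 of the 35 genes had several probe sets, and 27 of the 41 probe sets not chosen passed the filter. Of these 26 were higher in medulloblastoma and 24 in glioma than in normal brain, and none was lower at an adjusted p under 0.05 by limma. Over all tested genes, each by its brightest probe set, 32.2% and 28.4% were higher.

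Between the tumours, 18 of the 35 genes were higher in medulloblastoma, none was higher in glioma and 17 did not pass, where 13.6% of all genes were higher and 14.8% lower in medulloblastoma. At an unadjusted p under 0.05 in limma, 27 genes were higher and 0 lower, where 38.8% of all genes passed in either direction. The median difference was 0.75 against 0.01 over all genes, 8 genes were more than 2-fold higher (5.09% of all), and the arrays of 2 genes, Mcm6 and Dut, did not overlap (2.63%). The count varied with the fit and with the arrays used, and it fell in a fit with the letter and number codes as a block, given in the last section. Within the arrays whose titles carry the prefix YZ it was 14, and within those of the prefix YZ2, with 2 gliomas, it was 1. Without glioma A4, the only p53-null-only glioma, 8 of the 18 were called (9.68% of all genes were higher in that fit), namely Mcm6, Gins1, Dut, Rfc4, Gmnn, Mcm3, Prim1 and Orc6; the median was 0.56, and 34 of 35 differences were still above 0. Leaving out normal brain C2 instead gave 27 calls. When C2, A4 and the medulloblastomas A3 and C6 were left out together, 21 were called with a median of 0.74. Shares of all genes are not given for the fits by prefix, without C2 or without these arrays together. Their counts therefore do not tell a change in the set from a change over all genes.

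Mcm6 had the largest difference between the tumours, 1.82 (SE 0.35, limma adjusted p = 2.76e-04), and every medulloblastoma (635 or more) exceeded every glioma (476 or less). Dut followed the same pattern, 1.32 (SE 0.16, limma adjusted p = 6.53e-07), with 681 or more against 516 or less. Gins1 differed by 1.51 (SE 0.26, limma adjusted p = 7.61e-05) and Rfc4 by 1.24 (SE 0.23, limma adjusted p = 2.15e-04); the lowest medulloblastoma of both, A3, lay among the gliomas. Gmnn (1.13, SE 0.25, limma adjusted p = 0.00124) and Mcm3 (SE 0.29, limma adjusted p = 0.0108, a doubling) were called with and without A4. Dbf4 (1.17, SE 0.36, limma adjusted p = 0.0146) and Cdc6 (1.09, SE 0.34, limma adjusted p = 0.0179) were not called without A4. By role, 3 of 6 helicase genes, 4 of 5 licensing, 3 of 6 firing, 2 of 6 polymerase, 4 of 7 clamp and joining and 2 of 5 nucleotide genes were called. Pcna (0.31, SE 0.15), Lig1 (0.31, SE 0.24), Tyms (0.22, SE 0.23) and Fen1 (0.02, SE 0.25) had the smallest differences and did not pass.

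**Figure D3:**
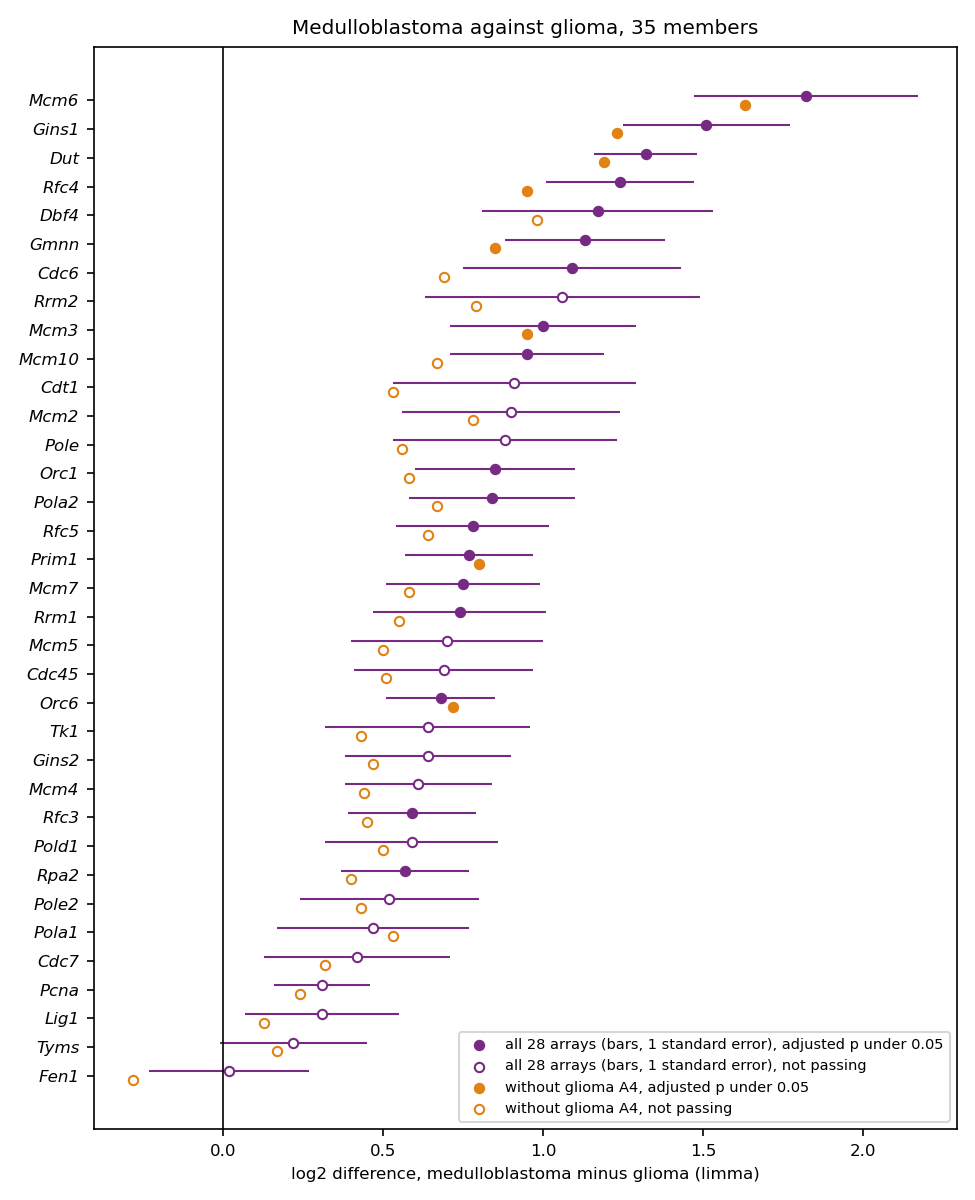
Log2 difference of medulloblastoma minus glioma for the 35 genes (rows) with all 28 arrays (purple, bars of 1 standard error) and without glioma A4 (orange); filled points passed at an adjusted p under 0.05. With all arrays 18 points are filled, and without A4 8 are, while 34 of the 35 orange points lie above 0.

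**Figure D4:**
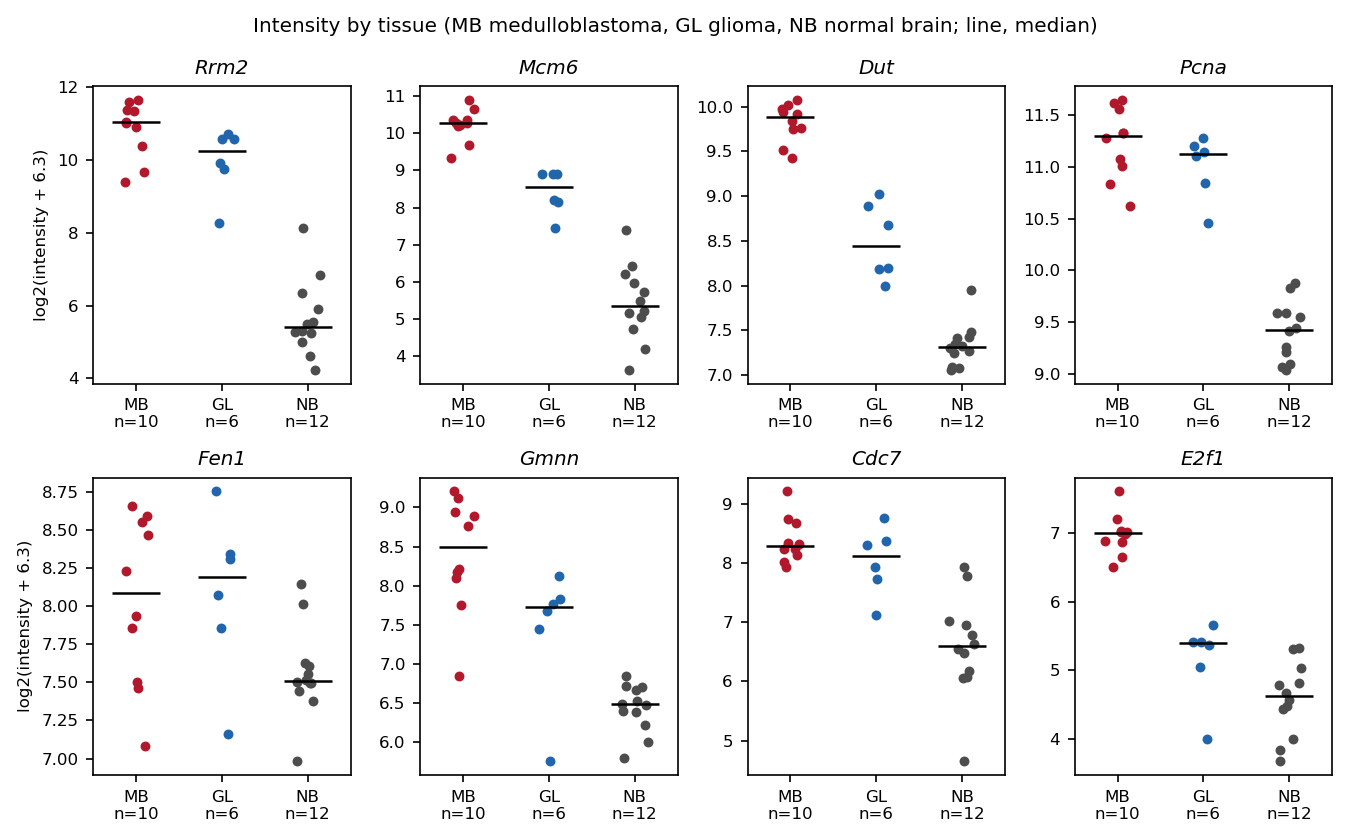
Intensity as log2(intensity + 6.3) of 7 replication genes and of E2f1 on each array (points) by tissue, with the median as a line; each panel has its own scale, which does not start at 0. Mcm6, Dut and E2f1 separate medulloblastoma from glioma completely, Pcna separates both tumours from normal brain, and the 3 tissues of Fen1 overlap.

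Medulloblastoma C4 carried its high Dbf4 within a run of raised neighbours. Dbf4 lies on chromosome 5, and of the 40 nearest measured genes in RefSeq order, 20 on each side, C4 was the highest medulloblastoma for 21 and more than 2-fold above the median of the other 9 for 24. Over all tested genes these shares were 8.37% and 4.14%. The raised genes included Cdk6, the G1 kinase (4715, 3.90 times the median of the others), Rbm48 (7.62 times), Cldn12 (5.58 times), Gtpbp10 (6.61 times), Sri (5.14 times), Slc25a40 (4.60 times), Crot (3.45 times) and Tmem243 (8.29 times), beside Dbf4 itself at 5.66 times. The run was not unbroken: Adam22, next to Dbf4, was at 1.59 times and Dmtf1 at 1.21 times, and beyond Sema3d (3.03 times) no gene in the window exceeded 2 times. Cdk6 is the outermost gene of the window on its side, so the end of the run there was not seen. Medulloblastomas B4 and C6 shared mainly the Cdk6 end. For 14 of the 15 genes from Cdk6 to Cfap69, C4, B4 and C6 were the 3 highest medulloblastomas, which held for 0.553% of all tested genes. From Sri to Elapor2 this held for Dbf4 and for 1 of the 11 other genes. The Dbf4 values of B4 and C6, 697 and 820, were not far above the 676 of A5. C6 was nonetheless the highest of the 9 medulloblastomas other than C4 at Slc25a40 (284), Adam22 (570) and Rundc3b (926). At Adam22 and Rundc3b it lay above C4 (264 and 924). These genes and arrays were singled out after their values were seen, no test was made, and copy number was not analysed here. The Dbf4 difference from normal brain does not rest on C4 alone, since the other 9 medulloblastomas all exceeded every normal brain.

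**Figure D5:**
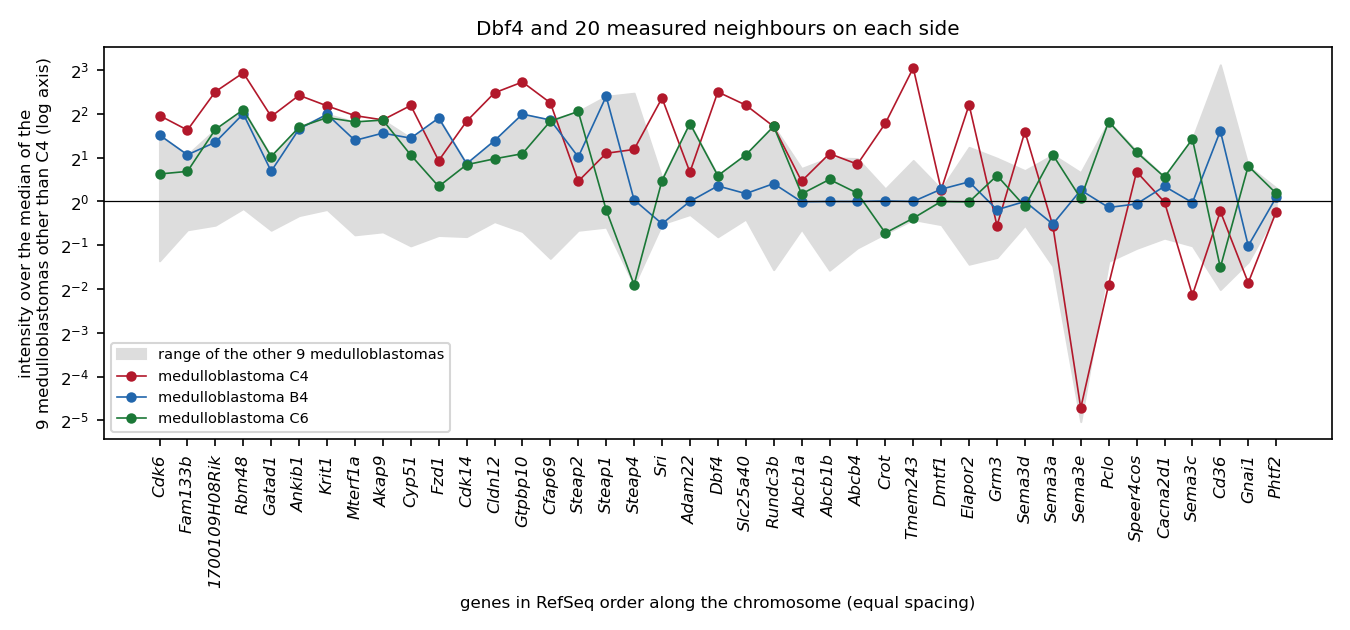
Intensity of Dbf4 and 20 measured neighbours on each side, as a ratio to the median of the 9 medulloblastomas other than C4 (log axis), for C4, B4 and C6, with the range of those 9 in grey; genes are equally spaced in RefSeq order. C4 lies above the grey range at 21 neighbours and at Dbf4. B4 and C6 rise with it at the Cdk6 end and far less at Dbf4, where C6 is the top of the grey range.

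No gene of the set passed in a comparison of Rictor genotypes. Rictor-null against p53-null-only medulloblastoma gave 0 calls of 35 by limma (1 higher and 0 lower of all tested genes, 0.00718%). At an unadjusted p under 0.05 in limma there was 1 gene of the set, Tk1, where 4.34% of all genes passed. Tk1 was 62, 74.6 and 112 in the 3 p53-null-only tumours (mean 83 ± 26.2, SD, n = 3) and 127 to 225 in the 5 Rictor-null ones (mean 188 ± 41.2, SD, n = 5), without overlap. The difference was 1.13 (SE 0.28, limma adjusted p = 0.776), which fails the correction. Mcm3 (0.66, SE 0.31) and Cdc45 (0.75, SE 0.36) came next, both with limma adjusted p = 0.981. The p53-null-only group held medulloblastoma A3, the lowest for most genes, and 30 of 35 differences were above 0 where 56.7% of all genes were, with a median of 0.25. Without A3, 18 were above and 17 below 0, the median was 0.00, and the Tk1 difference was 0.96 (SE 0.32, limma adjusted p = 0.998). Without Rictor-null tumour C6, 32 were above 0 with a median of 0.46.

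Rictor-null against Rictor-heterozygous medulloblastoma gave 0 calls by limma (0 higher and 1 lower of all genes) and 0 genes of the set at an unadjusted p under 0.05. The median was -0.17, with 9 of 35 above and 26 below 0, where 51.3% of all genes were above 0; without C6 the median was -0.06. Orc6 came closest, with 225 to 327 in the 5 Rictor-null and 414 and 420 in the 2 heterozygous tumours, a difference of -0.49 (SE 0.24, limma adjusted p = 1). Prim1 (-0.36, SE 0.26) and Tyms (-0.43, SE 0.41) followed. In normal brain, 5 Rictor-null and 5 heterozygous arrays gave 0 calls by limma (0 of all genes) and 0 at an unadjusted p under 0.05, with a median of 0.07 and 22 of 35 above 0 (51.8% of all genes). Without normal brain C2 the direction turned, to a median of -0.15 with 8 above 0. Fen1 (-0.23, SE 0.15), Dut (0.23, SE 0.16) and Cdc45 (0.33, SE 0.30) had the smallest p. The 1 Rictor-null glioma, C3, assumed to vary like the other groups, was compared with the 4 heterozygous ones: 0 calls by limma (3 higher of all genes, 0.0215%) and 0 at an unadjusted p under 0.05. Here 32 of 35 differences were above 0, against 46.4% of all genes, with a median of 0.36. All rest on the 1 array C3, the glioma with the highest median over the set (8.07), so the genes are not replicates of the genotype. The smallest p were those of Rfc4 (0.67, SE 0.42; 266 in C3 against 139 to 186), Rfc3 (0.57, SE 0.38) and Cdc45 (0.82, SE 0.56). The Rictor effect in medulloblastoma minus that in normal brain also gave 0 calls by limma (0 of all genes) and 0 at an unadjusted p under 0.05. Its median was -0.19 with 5 of 35 above 0 (50.6% of all genes), and without normal brain C2 it was 0.08 with 21 above 0. Prim1 (-0.56, SE 0.34), Orc6 (-0.51, SE 0.31) and Dut (-0.37, SE 0.30) had the smallest p. A missed threshold does not show equal levels.

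Other genes of the replication machinery followed with smaller differences. Of 33 listed, 31 were higher in medulloblastoma than in normal brain (32.2% of all tested genes) and 24 in glioma (28.4%). Their medians were 1.19 and 0.79, and none was lower. The largest in medulloblastoma were Ticrr (3.05 and 2.23) and Clspn (3.04 and 2.31), of origin firing and the replication checkpoint, Wdhd1 (2.78 and 1.90), which tethers polymerase alpha, and Timeless (2.67 and 2.07), of the fork protection complex. The recognition complex subunits outside the set differed little: Orc2 by 0.86 and 0.72, both passing, Orc3 by 0.61 and Orc5 by 0.38 in medulloblastoma, with 0.15 and 0.20 in glioma not passing, and Orc4 by 0.27 (limma adjusted p = 0.0546) and 0.00. The helicase relatives Mcm8 (1.19 and 0.68) and Mcm9 (0.95 and 0.57), known for recombination, were higher in both tumours. Rpa3, the small subunit of the single-strand binding complex, separated the tumours, with 295 to 1345 in medulloblastoma and 157 to 234 in glioma (difference 1.49, SE 0.23, limma adjusted p = 2.02e-05).

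Nucleotide genes outside the set were less uniform. Of 26 listed, 24 were tested, of which 19 were higher and 2 lower in medulloblastoma and 16 higher and 2 lower in glioma. Over all tested genes, 32.2% were higher and 32% lower in medulloblastoma, and 28.4% and 25.5% in glioma, so falls were rarer in this list. Shmt2 (2.40 and 2.41), Shmt1 (2.03 and 1.60) and Mthfd2 (2.25 and 1.75), of folate metabolism, and Cad (2.33 and 1.68), which starts pyrimidine synthesis, rose most in medulloblastoma. The same 2 genes fell in both tumours, and both serve cells outside S phase: Rrm2b, the p53-induced reductase subunit, by -0.46 (SE 0.16, limma adjusted p = 0.0163) and -0.61 (SE 0.19, limma adjusted p = 0.0083), and Tk2, the mitochondrial thymidine kinase, by -0.47 (SE 0.12, limma adjusted p = 8.42e-04) and -0.78 (SE 0.13, limma adjusted p = 1.96e-05). All normal brains but the wild type carried the same hGFAP-Cre::p53-/- label as the tumours, and the part of p53 in these differences was not tested. The S-phase forms Rrm2 and Tk1 moved opposite to Rrm2b and Tk2. Dck, the deoxycytidine kinase, differed by 1.60 and 0.92, and Samhd1, which degrades deoxynucleotides, by 1.08 and 0.87.

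All 7 tested of 8 replication-coupled chromatin genes were higher in medulloblastoma (32.2% of all tested genes) and in glioma (28.4%). In medulloblastoma they were led by Uhrf1 (4.85 and 3.52), which recruits the maintenance DNA methyltransferase, Hells (3.84 and 2.56), Nasp (3.18 and 2.24) and Chaf1b (2.81 and 2.08). Of 13 E2F and pocket protein genes, 11 were higher and 0 lower in medulloblastoma, and 8 were higher and 1 lower in glioma. In medulloblastoma 32.2% of all tested genes were higher and 32% lower, and in glioma 28.4% and 25.5%. The repressors E2f8 (3.36 and 3.15) and E2f7 (3.10 and 2.78), the activator E2f2 (2.90 and 1.94) and the pocket protein gene Rbl1 (2.86 and 2.44) had the largest differences in medulloblastoma; between the tumours, E2f2 passed (0.95, SE 0.29) and E2f8 did not (0.21, SE 0.34). E2f1, an activator of the replication genes, was 84.4, 122 and 190 in medulloblastoma, 9.7, 35.7 and 44.5 in glioma and 6.4, 18.2 and 33.6 in normal brain. The medulloblastomas stood apart from all other arrays, and the gliomas overlapped the normal brains. Its difference from normal brain was 2.43 (SE 0.21, limma adjusted p = 3.43e-10) in medulloblastoma and 0.56 (SE 0.24, limma adjusted p = 0.0549) in glioma, and the tumours differed by 1.87 (SE 0.26, limma adjusted p = 3.78e-06). Tfdp2, a dimer partner of the E2F factors, was the 1 gene lower in glioma, by -0.62 (SE 0.20, limma adjusted p = 0.0102), and differed by 0.44 in medulloblastoma (SE 0.17, limma adjusted p = 0.0306).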

How the data were processed

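The values are the deposited intensities on a linear scale of 45101 probe sets on 28 arrays, made with MAS5 and GCOS per the submitters' processing notes, which name no version. After trimming 2% at each end, every array had a mean of 100, and array medians lay between 18.8 and 27.8, so arrays were not scaled again. Detection calls were not used, and precision is limited by how many arrays there were. Probe sets annotated to 1 symbol were kept (34945), and 932 with several symbols and 9211 with none were not named. Each gene was read from its probe set with the highest mean.

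The scale of every test was log2(intensity + 6.3), with 6.3 the 25th percentile of the table, which understates the change of dim genes. Genes with a mean over the 30th percentile (3.88) were tested with limma 3.58.1 in R 4.3.3 (lmFit, eBayes with a mean-variance trend, two-sided), with Benjamini-Hochberg adjustment over 13931 genes. Tissue comparisons came from 1 additive model of tissue and genotype on all 28 arrays. Rictor comparisons in medulloblastoma and in normal brain used those arrays alone, and the glioma comparison and the difference of effects used 10 group means. The fitting was tested on simulated data.

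The 35 genes and all lists were chosen with earlier results of these data known. Values per array are given for the largest and smallest difference in each role, for genes not called in a tumour, for the 8 largest called differences between the tumours and, where none was called, for the 3 smallest p of a Rictor comparison; Pcna, E2f1, Rpa3, Mki67 and the arrays of Dbf4's neighbours were named in addition. From the other lists up to 4 genes higher and 4 lower, and 12 genes fixed by name, were given. Samples were not treated as paired.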

Additional observations from a re-analysis of the deposited data

Results flagged for a closer look

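Single arrays stood apart from the rest of their group for 18 of 210 sets of a gene and a group, judged by the gap to the nearest array over the group's range; chance flags about 1 in 20 sets. Dbf4 was 3084 in medulloblastoma C4 against 312 to 820 in the other 9, and it also stood apart among the 5 Rictor-null medulloblastomas, of which the next highest reached 820. Medulloblastoma A3 was low for Mcm3 (235, others 443 to 847), Mcm4 (247, others 530 to 1116) and Cdc6 (45.9, others 122 to 214). Glioma A4 was low for Cdc6 (15.4, others 64.7 to 128) and Gmnn (47.7, others 169 to 274). Among the 5 Rictor-null medulloblastomas, C6 was low for Mcm5 (563, others 1110 to 1396) and Rfc5 (151, others 323 to 404). Of the 4 heterozygous gliomas, B2 was low for Orc6 (125, others 202 to 221) and Pole (88.6, others 124 to 131), and B1 was high for Rfc3 (172, others 116 to 121). Within the 5 Rictor-null normal brains, C2 was high for Mcm3 (117, others 19.5 to 28.6), Mcm4 (199, others 110 to 125) and Gins1 (43.9, others 13.2 to 16.9). In the 5 heterozygous normal brains, B1 was low for Mcm10 (18.2, others 23.5 to 25.4), and B2 was low for Rfc5 (30.8, others 57.7 to 73.4) and high for Fen1 (252, others 174 to 189).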

How the results depend on the processing

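Against normal brain, the count of genes called higher was 34 or 35 in medulloblastoma and 31 to 35 in glioma under every alternative run, leaving out each array (34 to 35 in both) included. Fen1 alone reversed: in medulloblastoma it was -0.03 among the arrays whose titles carry the prefix YZ2. The count between the tumours moved with the fit and with the arrays used: 1 of 18 was called with the replicate block (letter and number code, median 0.51), 1 within the YZ2 prefix (median 0.60, with 2 gliomas), 14 within the YZ prefix, and 8 to 27 when 1 array was left out, lowest without glioma A4 (8) and highest without normal brain C2 (27). Letter and number codes link 11 tumours to normal brains. The deviations of these pairs from their tissue means correlated by -0.118 to 0.352, with 7 of 11 over 0.1. Treating the samples as paired would have required all to be over 0.1, a rule that cannot exclude pairing. 9 of the 22 arrays correlated best with the array of their own code. Each tumour was compared with all 12 normal brains and each normal brain with all tumours, so random matching would give fewer. Whether the codes mark animals was not settled, and the main fit treats the arrays as independent. Why the replicate block lowered the count was not tested; it changed no other count by over 1.5 times, with 34 calls in each tumour against normal brain, and a call lost under it is not described as weaker. Pseudocounts of 1 and 32 gave 18 and 25, quantile normalization 20, the mean of all probe sets 21 of 34, and no filter 17. Except without A4, shares of all genes are not given for these alternatives. No gene was called in a Rictor comparison under any alternative run. Rictor comparisons without the arrays that stood apart are given with their results. The fit without C2, A4, A3 and C6 and that of each probe set on its own were chosen after seeing the data.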
